A study of Homo sapiens with 24 samples.

Results

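Open chromatin of an enzalutamide-resistant prostate cancer subline kept on the drug was compared with that of its untreated parental line, both deprived of androgen. LNCaP is a human prostate cancer cell line that depends on androgens, and RES-A is a subline of it that became resistant under long culture with the receptor inhibitor enzalutamide (ENZ). The comparison took the 3 RES-A libraries given 10 µM ENZ (RES-A ENZ) and the 3 parental libraries given the solvent DMSO (LNCaP DMSO), 6 of the 24 libraries of the series. All cells were first held for 3 days in medium with 5% hormone-stripped serum and then treated for 18 h, with no dihydrotestosterone (DHT) added in either group. The 10 µM ENZ was already present during those 3 days for RES-A and absent for LNCaP. The groups therefore differed in subline, in the preculture drug and in the final treatment at once, and these cannot be told apart within the comparison. The other 18 libraries were used to describe how the same regions behaved: LNCaP and RES-A with DHT (10 nM), LNCaP with ENZ, RES-A with DMSO, and both with DHT and ENZ together (DHT+ENZ), each in 3 libraries. RES-A DMSO cells had received ENZ in preculture and were without it for the 18 h. RES-A is a single derived line, so that its values describe this subline and not resistance in general, and the methods call the libraries biological triplicates. Genes at the regions, and with them the markers of the line, were not analysed here because the positions are those of the hg19 genome build and no annotation of that build was at hand.

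The androgen receptor is a hormone-activated transcription factor that binds enhancers and promoters in luminal prostate cells, and its bound sites tend to lie in open, nucleosome-depleted chromatin. ENZ occupies the hormone-binding pocket of the receptor and hinders its entry into the nucleus and its binding to DNA, and stripped serum removes most of its natural ligands. FAIRE-seq recovers DNA that is not held by cross-linked nucleosomes, so a FAIRE peak marks a stretch of chromatin that was open in part of the cells. In bulk cells, a lower peak from fewer cells with an open site and one from less opening per cell cannot be told apart.

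Each library came with its own peak list. The RES-A ENZ lists held 196128, 240262 and 186832 peaks and the LNCaP DMSO lists 194720, 262245 and 129409. The highest and the lowest list were both parental, and the groups overlapped. The means were 207741 ± 28545 (SD, n = 3) and 195458 ± 66421 (SD, n = 3), a difference of 12283 peaks (exact two-sided permutation p = 0.9, where the smallest possible p for 3 against 3 libraries is 0.1). Its direction turned without RES-A ENZ replicate 2 and without LNCaP DMSO replicate 3.

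The depth of the libraries was gauged by the lowest background level, in reads per base, that the peak caller had set in each list. It was 2.27, 4.48 and 2.57 in RES-A ENZ and 2.58, 4.84 and 1.95 in LNCaP DMSO, so both groups held a deeper second library. The means of 3.11 ± 1.20 and 3.12 ± 1.52 (SD, n = 3 each) differed by less than the spread between libraries (exact permutation p = 0.9). Across the 24 libraries the background ran from 0.406, in LNCaP ENZ replicate 1, to 5.99. To compare lists of unequal length, the 50000 peaks of each library with the highest −log10 p were taken as its top-ranked peaks. Fold enrichment, the pileup of reads at the peak summit over the expected local pileup, had a median among top-ranked peaks of 9.54, 9.54 and 9.38 in RES-A ENZ and of 8.10, 8.78 and 6.77 in LNCaP DMSO. The 3 RES-A ENZ medians all lay above the parental ones (difference 1.60, exact permutation p = 0.1, the smallest possible).

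Open sites found in one group and not in the other were compared next. Regions with a peak in at least 2 of the 3 libraries of a group, over all deposited peaks, numbered 178722 in RES-A ENZ and 166359 in LNCaP DMSO. Of these, 55765 (31.2%) in RES-A ENZ overlapped no region of the other group, against 43828 (26.3%) in LNCaP DMSO. The difference of 4.86 percentage points did not stand apart from those given by the other assignments of the 6 libraries to groups (exact permutation p = 0.9). When 1 library was left out, its group needed peaks in 2 of 2 libraries while the other group still needed 2 of 3. The values below therefore reflect a stricter rule in 1 group as well as the missing library. Leaving out any 1 of the RES-A ENZ libraries turned the direction of the difference, to -4.99, -10.8 and -3.75 points without replicates 1, 2 and 3. Leaving out LNCaP DMSO replicate 1, 2 or 3 gave 30.1, 34.2 and 8.97 points, and counting only regions with peaks in 3 of 3 libraries raised the difference to 18.6 points (exact permutation p = 0.4).

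At an equal number of peaks, libraries resembled those of their own group more than those of the other. The base-pair Jaccard index, the base pairs shared by the top-ranked peaks of 2 libraries over all those they cover, was 0.663 ± 0.0041 (SD) for the 3 pairs within RES-A ENZ and 0.547 ± 0.054 for the 3 pairs within LNCaP DMSO. The 9 pairs across groups gave 0.432 ± 0.014, from 0.407 to 0.453, below every pair within a group. Group membership took a share of 0.503 of the variance of the index (R2, exact permutation p = 0.1, the smallest possible). The index was higher within RES-A ENZ than within LNCaP DMSO in every pair, a difference that was not tested.

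The top-ranked peaks of the 6 libraries merged into 82703 regions. A region was called in a library when it overlapped one of its top-ranked peaks by 1 bp or more. Of all regions, 24968 (30.2%) were called in all 6 libraries. The regions called in 3 of 3 RES-A ENZ and 0 of 3 LNCaP DMSO libraries numbered 7084, or 8.57% of all regions, and are named here RES-A ENZ alone. The reverse pattern, LNCaP DMSO alone, was found in 5096 regions, or 6.16%. These counts are descriptions without a test, and their order depends on the demand for 3 of 3 libraries. Regions with calls in 1 or 2 of 3 LNCaP DMSO libraries and 0 of 3 RES-A ENZ numbered 11111 (13.4%) and 5815 (7.03%). The reverse patterns numbered 5830 (7.05%) and 3852 (4.66%). Leaving out a library loosens the 3 of 3 rule, which then asks for fewer libraries, and all counts of both lists were higher. LNCaP DMSO alone held 6611, 6361 and 8153 regions without LNCaP DMSO replicates 1, 2 and 3. The last of these is the library of lowest background in the comparison.

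Regions called in one group alone often had a peak of lower rank in the other. Among the 7084 regions of RES-A ENZ alone, 3473 (49.0%) had a peak of lower rank in all 3 LNCaP DMSO libraries and 1151 (16.2%) had no peak of any rank there. Among the 5096 of LNCaP DMSO alone, 3829 (75.1%) had a lower-ranked peak in all 3 RES-A ENZ libraries and 501 (9.83%) had none. For comparison, 66714 of all 82703 regions had a peak of any rank in all 6 libraries. These shares depend on how long the lists are, and LNCaP DMSO replicate 3 had the shortest, with 129409 peaks. The part of list length was not tested. RES-A ENZ alone regions had a median length of 423 bp (quartiles 365 and 514), close to the 424 bp of all regions. LNCaP DMSO alone regions had a median of 493 bp (406 and 613), nearer to the 507.5 bp of regions called in all 6 libraries.

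Where a peak was listed, RES-A ENZ alone regions had a median fold enrichment of 9.24, 9.19 and 9.05 in RES-A ENZ and 4.71, 4.63 and 4.06 in LNCaP DMSO. For LNCaP DMSO alone regions the medians were 5.19, 5.11 and 5.17 in RES-A ENZ and 7.58, 8.42 and 6.24 in LNCaP DMSO. The named regions are extremes of these lists and not typical of them. They are the 6 per list whose peaks stood highest by −log10 p within their own libraries, and their values are descriptions. The highest of RES-A ENZ alone, chr6:47408276-47408930, had a fold enrichment of 18.0, 15.5 and 16.8 in RES-A ENZ. In LNCaP DMSO it had a peak in replicate 2 alone, at 4.80. A region on chromosome 5, chr5:21494342-21494813, had 10.3, 9.81 and 11.7 in RES-A ENZ and, in LNCaP DMSO, no peak in replicate 1 and 3.40 and 2.94 in the others. In the 9 other RES-A libraries, with DHT or without, the first lay between 14.1 and 17.3 and the second between 9.11 and 11.7. At chr17:37873088-37873511 the values were 19.5, 18.7 and 21.4 against 3.63, 3.43 and 4.06. The other 3 (chr7:75240852-75241563, chr7:68887420-68887889 and chr5:133841805-133842275) ranged from 17.1 to 20.3 in RES-A ENZ and, where a peak was listed, from 3.39 to 7.37 in LNCaP DMSO.

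Among the 6 regions of LNCaP DMSO alone, some stayed low in every RES-A group and others did not. At chr19:58951419-58951903 the fold enrichment was 16.9, 20.1 and 16.5 in LNCaP DMSO and 4.58, 5.48 and 5.88 in RES-A ENZ, and it stayed between 3.36 and 6.74 in the 9 other RES-A libraries. The regions chr14:20148524-20149258 and chr1:79321704-79322270 lay between 3.16 and 6.46 in all 12 RES-A libraries, below every LNCaP DMSO value. At chr7:136856817-136857378 the values were 11.2, 11.3 and 9.33 in LNCaP DMSO, 5.86, 6.02 and 5.54 in RES-A ENZ and 3.68, 5.67 and 5.50 in RES-A DMSO. With DHT they were 10.7, 8.95 and 10.3 in RES-A, above every RES-A DMSO and RES-A ENZ value and overlapping the parental ones. The region chr1:79014890-79015561 had a like course, at 10.1, 10.1 and 8.52 in LNCaP DMSO, 4.58, 7.17 and 6.44 in RES-A ENZ and 10.6, 10.4 and 11.4 in RES-A DHT. At chr8:22877431-22877928 LNCaP DMSO had 12.6, 12.9 and 11.5, while RES-A DMSO had no peak in any library. RES-A DHT gave that region 6.41, 6.81 and 7.25, of which 2 were top-ranked.

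**Figure D1:**
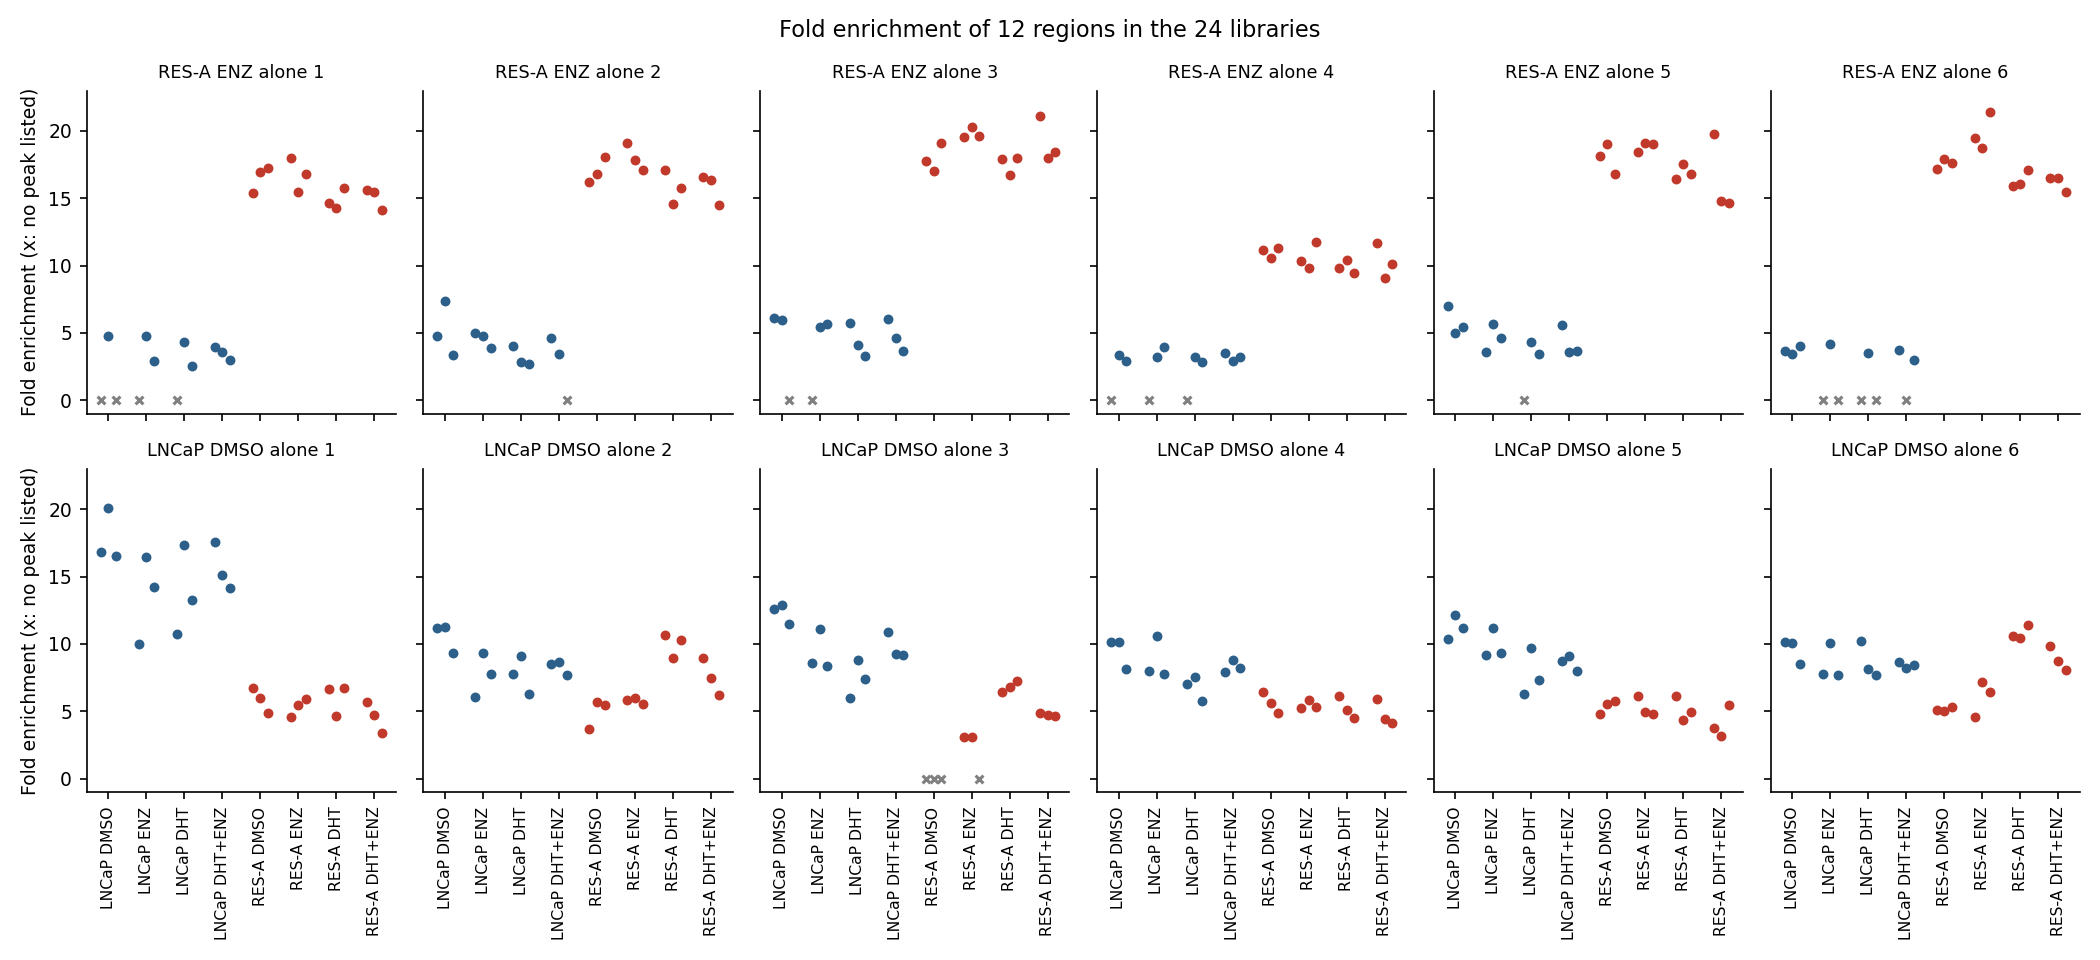
Fold enrichment (vertical axes, linear, the highest peak of the region) of the 6 named regions called in RES-A ENZ alone (upper row) and the 6 called in LNCaP DMSO alone (lower row) in each of the 24 libraries, 3 per group, parental in blue and RES-A in red. Grey crosses at 0 mark libraries with no peak listed, not a measured value. From left to right the upper regions lie on chromosomes 6, 7, 7, 5, 5 and 17 and the lower ones on chromosomes 19, 7, 8, 14, 1 and 1. The upper regions are high in all RES-A groups, and the second and sixth lower regions are low in RES-A DMSO and ENZ but not with DHT.

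The libraries that took no part in choosing the regions separated by subline. RES-A DMSO libraries, in which the drug had been withdrawn for the 18 h, called 87.4% ± 2.05 (SD, n = 3) of the RES-A ENZ alone regions, and LNCaP ENZ libraries, in which the drug had been given, called 8.63% ± 2.51. The difference of 78.8 points had an exact permutation p = 0.1, the smallest possible, and an adjusted p = 0.143 over the 10 differences of this kind. Of the LNCaP DMSO alone regions, RES-A DMSO called 6.92% ± 0.71 and LNCaP ENZ 70.5% ± 21.7, a difference of -63.6 points (exact permutation p = 0.1, adjusted 0.143). The 3 LNCaP ENZ libraries called 45.5%, 83.4% and 82.8% of them, the first being the library of lowest background in the series, which called fewer of all regions too. For comparison, RES-A DMSO called 58.3% ± 0.19 and LNCaP ENZ 52.6% ± 9.10 of all 82703 regions.

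By region, 4130 of the RES-A ENZ alone regions (58.3%) were called in 3 of 3 RES-A DMSO and 0 of 3 LNCaP ENZ libraries, a pattern of 8.03% of all regions. Only 3 had the reverse pattern. Of the LNCaP DMSO alone regions, 1613 (31.7%) were called in 0 of 3 RES-A DMSO and 3 of 3 LNCaP ENZ libraries, against 3.87% of all regions. Calls in all 9 other RES-A libraries and none of the 9 other LNCaP libraries were found for 1707 of the RES-A ENZ alone regions (24.1%, against 2.48% of all regions). The mirror pattern was found for 527 of the LNCaP DMSO alone regions (10.3%, against 0.817%). The numbers called in no further library were 25 (0.353%) and 10 (0.196%), against 4.40% of all regions. All regions include many called in only 1 of the 6 libraries, whereas both lists demanded 3 of 3, so these shares are not alike.

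Within RES-A, libraries with androgen called fewer of the RES-A ENZ alone regions and more of the LNCaP DMSO alone regions than libraries without it. RES-A DHT libraries called 64.1% ± 2.27 of the RES-A ENZ alone regions (SD, n = 3), 23.3 points fewer than RES-A DMSO (exact permutation p = 0.1, adjusted 0.143), with no overlap between the groups. They called 25.5% ± 0.60 of the LNCaP DMSO alone regions, 18.6 points more than RES-A DMSO (exact permutation p = 0.1, adjusted 0.143). With ENZ added to DHT the shift was smaller in these values: RES-A DHT+ENZ called 83.9% ± 0.34 and 15.3% ± 0.84, differing from RES-A DMSO by -3.54 and 8.35 points (exact permutation p = 0.1, adjusted 0.143 for both). Of all 82703 regions, RES-A DHT called 55.1% ± 0.56, RES-A DHT+ENZ 58.1% ± 0.28 and RES-A DMSO 58.3% ± 0.19, so that RES-A DHT called fewer regions in general. No difference reached the 0.05 threshold, which 3 against 3 libraries cannot.

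In single regions, 740 of LNCaP DMSO alone (14.5%) were called in 0 of 3 RES-A DMSO and 3 of 3 RES-A DHT libraries. Of all regions, 3.12% held this pattern. Calls in 0 of 3 RES-A DMSO libraries were themselves far more frequent in the list, at 4349 regions (85.3%) against 25387 (30.7%) of all. The 740 are to be read against those 4349, and the 2584 of all regions with the pattern against those 25387. Of these 740, 241 were called in 3 of 3 RES-A DHT+ENZ libraries and 197 in none, and of the 2584 such regions among all, 878 and 557 were. In the other direction, 710 of the RES-A ENZ alone regions (10.0%, against 2.96% of all regions) were called in 3 of 3 RES-A DMSO and 0 of 3 RES-A DHT libraries, and 305 of them were called in 3 of 3 with DHT+ENZ, as were 808 of the 2447 such regions among all. Calls in 3 of 3 RES-A DMSO libraries were likewise more frequent in RES-A ENZ alone, at 5247 regions (74.1%) against 39132 (47.3%) of all. The 710 and the 2447 are to be read against these. The larger part of LNCaP DMSO alone, 3305 regions or 64.9%, was called in none of the RES-A DHT libraries, as were 33.6% of all regions.

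In parental cells, libraries with DHT were set against those with ENZ, since LNCaP DMSO had chosen the regions. LNCaP DHT called 5.50% ± 2.34 of the RES-A ENZ alone regions and LNCaP DHT+ENZ 5.71% ± 1.42, which were -3.14 and -2.93 points from LNCaP ENZ (exact permutation p = 0.3 and 0.2, adjusted 0.333 and 0.25). Of the LNCaP DMSO alone regions they called 75.9% ± 10.8 and 86.8% ± 2.91, differing from LNCaP ENZ by 5.34 and 16.3 points (exact permutation p = 0.8 and 0.1, adjusted 0.8 and 0.143). Without LNCaP ENZ replicate 1 these last differences were -7.18 and 3.73 points. Of all regions LNCaP DHT called 51.1% ± 4.95, LNCaP DHT+ENZ 57.4% ± 0.60 and LNCaP ENZ 52.6% ± 9.10.

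**Figure D2:**
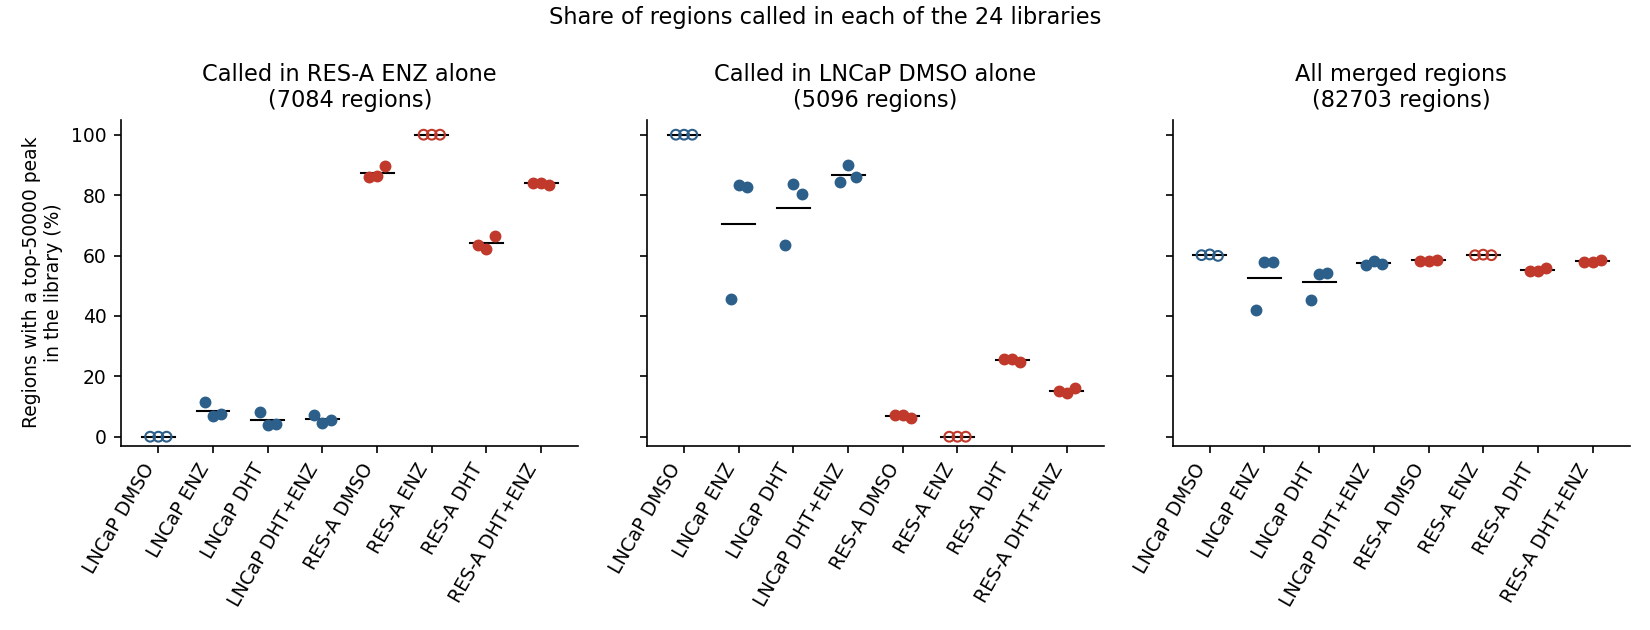
Percentage of regions (vertical axis) called in each of the 24 libraries (points, 3 per group; lines are group means), for the regions called in RES-A ENZ alone, those called in LNCaP DMSO alone and all merged regions. Open circles are the 6 libraries that chose the lists and are at 0% or 100% by construction in the left and middle panels. RES-A DMSO sits at 87.4% on average in the left panel and LNCaP ENZ at 8.63%, and RES-A DHT lies between.

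A test of signal was possible at the 66714 regions with a peak of any rank in all 6 libraries. The fold enrichment was put on a log2 scale, quantile normalized between libraries and tested with limma. After Benjamini-Hochberg adjustment 7008 regions (10.5%) were higher in RES-A ENZ and 6058 (9.08%) lower at a threshold of 0.05. The median log2 difference was 0.71 among the higher and -0.70 among the lower, against -0.02 over all tested regions (quartiles -0.23 and 0.22) and a median SE of 0.17. At least 2-fold changes were seen in 1112 of the higher and 758 of the lower regions. Leaving out RES-A ENZ replicate 1, 2 or 3 reduced the higher calls to 4027, 4097 and 4019 and the lower ones to 3661, 3533 and 3648. Signal as log2(pileup + 1), without division by the local background, gave 12538 higher and 11172 lower.

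**Figure D3:**
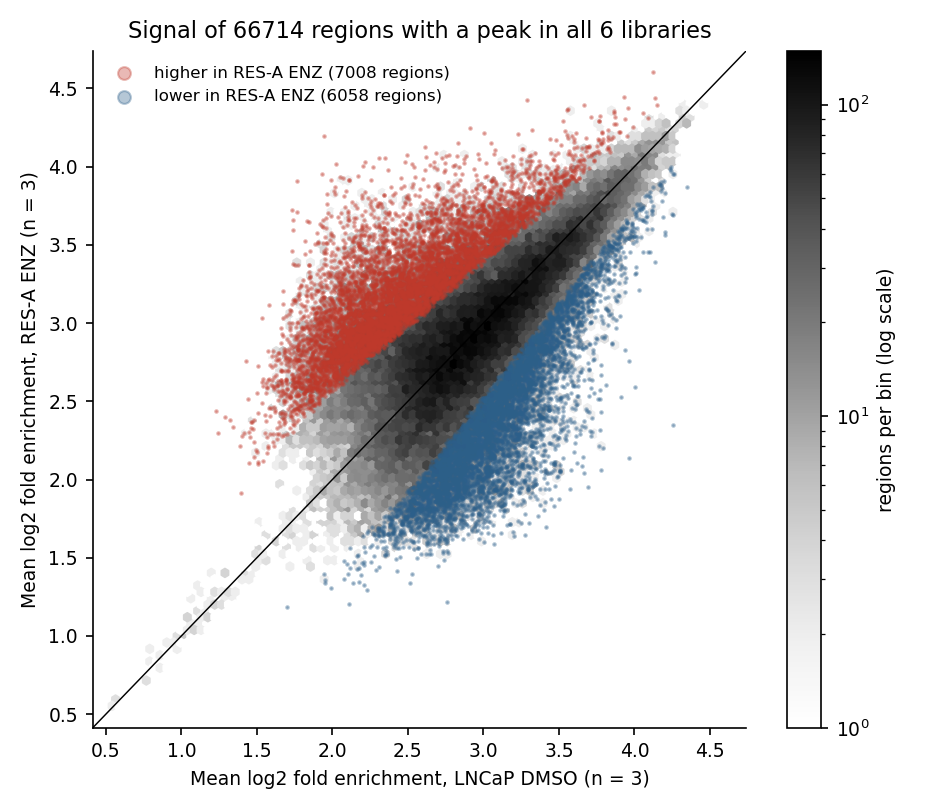
Mean normalized log2 fold enrichment in RES-A ENZ (vertical axis) against LNCaP DMSO (horizontal axis), 3 libraries each, for the 66714 regions with a peak in all 6 libraries. Grey bins show the number of regions on a log colour scale, points the 7008 regions called higher (red) and 6058 called lower (blue) by limma, and the line equal signal.

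The region of smallest p among the higher ones was chr17:37873088-37873511, described above, with a log2 difference of 2.26 ± 0.16 (SE; limma adjusted p = 2.40e-06). Next was chr6:74892736-74893187, at 17.4, 16.7 and 14.97 in RES-A ENZ and 3.07, 3.77 and 3.39 in LNCaP DMSO. Its log2 difference was 2.14 ± 0.16 (limma adjusted p = 4.39e-06). No LNCaP DHT library listed a peak there. The 3 other named regions, chr17:219397-219826, chr15:42184680-42185065 and chr20:3061455-3062101, differed by 1.80, 1.86 and 1.81. They were also high in RES-A DMSO, where their fold enrichment was between 13.2 and 17.6.

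Among the lower regions, chr19:58951419-58951903 again led, with a log2 difference of -1.91 ± 0.13 (SE; limma adjusted p = 2.40e-06). The regions chr18:76735441-76735913 and chr22:49969008-49969383 differed by -1.71 and -1.83 and lay between 4.01 and 7.82 in RES-A DHT. At chr18:9717579-9718047 LNCaP DMSO had 12.7, 13.9 and 9.39 and RES-A ENZ 3.67, 4.56 and 3.64, a log2 difference of -1.74. In RES-A DHT it had 9.85, 8.26 and 11.2. The region chr9:133404339-133404770 had 17.0, 16.8 and 11.2 in LNCaP DMSO and 6.72, 6.57 and 5.88 in RES-A ENZ, with a log2 difference of -1.41. It had 15.04, 12.1 and 14.2 in RES-A DHT. At these last 2 regions the RES-A DHT values lay above all 3 RES-A ENZ values and overlapped those of the parental line. The regions were chosen for their difference between RES-A ENZ and LNCaP DMSO, which favours low RES-A ENZ values. RES-A DMSO took no part in that choice. It had 3.22, 4.23 and 4.90 at the first and 5.64, 6.44 and 5.80 at the second, below every RES-A DHT value.

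The called regions differed in the same direction in libraries that the test had not used. In RES-A DMSO against LNCaP ENZ, 2392 of the 2474 higher regions with a peak in all 6 of those libraries (96.7%) had the higher mean in RES-A, and 3086 of 3270 lower regions (94.4%) the lower mean. Over all tested regions 50.8% had the higher mean in RES-A. In RES-A DHT+ENZ against LNCaP DHT+ENZ the counts were 5996 of 6134 (97.8%) and 5035 of 5216 (96.5%), with 47.3% over all. With DHT alone in both sublines they were 2329 of 2401 (97.0%) and 3596 of 4032 (89.2%), with 51.5% higher over all. In that pair of groups the median log2 difference of the lower regions was -0.36, against -0.48 in RES-A DMSO and LNCaP ENZ and -0.52 with DHT+ENZ, a contrast that was not tested.

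Subline and drug were set side by side in a limma fit of LNCaP DMSO, LNCaP ENZ, RES-A DMSO and RES-A ENZ, 12 libraries, at the 40193 regions with a peak in all of them. RES-A ENZ against LNCaP DMSO gave 1601 higher (3.98%) and 1476 lower (3.67%) regions at an adjusted p under 0.05. RES-A DMSO against LNCaP DMSO gave 1526 higher (3.80%) and 1675 lower (4.17%). RES-A ENZ against LNCaP ENZ gave 1843 (4.59%) and 1701 (4.23%). These contrasts share libraries and are given next to each other only.

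For the drug alone there were no calls by limma. RES-A ENZ against RES-A DMSO had 0 calls (0%), with 541 regions (1.35%) at an unadjusted p under 0.05, and a median absolute log2 difference of 0.086. LNCaP ENZ against LNCaP DMSO had 0 calls, with 3256 (8.10%) at an unadjusted p under 0.05 and a median absolute difference of 0.15. The interaction of subline and drug had 0 calls and 1575 (3.92%) unadjusted. The median absolute difference was 0.18 for RES-A ENZ against LNCaP DMSO, with a median SE of 0.17 for every contrast of 2 groups. Without LNCaP ENZ replicate 1, 67884 regions could be tested, and the calls rose to 14599 for RES-A ENZ against LNCaP DMSO and to 4 for LNCaP ENZ against LNCaP DMSO, while RES-A ENZ against RES-A DMSO stayed at 0. Those 4 were chr1:24446272-24447198, chr1:156529520-156530087 and chr7:155250010-155250320, lower with ENZ by -1.10, -1.09 and -1.16, and chr4:40406157-40406600, higher by 0.87 (named after their values were seen). A count of 0 shows only that no drug effect was detectable in this fit, with this number of libraries. Only regions with a peak in all libraries were tested, so sites that gained or lost their peak with the drug were not covered. The estimate of spread was also shared by all the groups, LNCaP ENZ replicate 1 included.

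The differences were not spread evenly over the chromosomes. The share of top-ranked peaks was higher in all 3 RES-A ENZ libraries than in any LNCaP DMSO library for 7 of 23 chromosomes (30.4%) and lower for 10 (43.5%), each with an exact permutation p = 0.1 and an adjusted p = 0.135. Chromosome 6 held 6.51%, 6.38% and 6.47% of the RES-A ENZ peaks and 4.54%, 4.62% and 4.34% of the LNCaP DMSO peaks, a log2 ratio of 0.52. Chromosomes 21, 1 and 16 followed with log2 ratios of 0.40, 0.29 and 0.21. On the lower side stood chromosome 15, with means of 2.61% and 3.43%, chromosome 4 with 4.47% and 5.83%, chromosome 8 with 4.03% and 5.15% and chromosome 11 with 4.38% and 5.06%.

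Regions called in one group alone were uneven over the chromosomes as well. On chromosome 6, 690 of 4700 regions (14.7%) were RES-A ENZ alone and 145 (3.09%) LNCaP DMSO alone. On chromosome 1 the shares were 12.3% and 4.16%, on chromosome 21 they were 13.1% and 3.27%, and on chromosome 16 10.3% and 2.87%. Chromosome 8 had 5.93% RES-A ENZ alone and 11.6% LNCaP DMSO alone, chromosome 4 had 5.49% and 10.3%, and chromosome 15 had 4.87% and 10.1%. Over all regions the lists made up 8.57% and 6.16%, so that RES-A ENZ alone was the longer list under the 3 of 3 rule. Chromosomes 5, 13, 14 and 18 had a lower share of peaks in RES-A ENZ and still more RES-A ENZ alone than LNCaP DMSO alone regions. Their list shares were 7.89% and 7.57%, 8.22% and 8.01%, 8.14% and 5.76%, and 8.04% and 7.15% in turn. In the signal test, 15.8% of the chromosome 6 regions were higher and 6.49% lower, and on chromosome 8 the shares were 8.15% and 14.9%. Neighbouring regions tended to share their list: the nearest region of either list belonged to the same list for 74.2% of the RES-A ENZ alone regions, which made up 58.2% of both lists, and for 61.9% of the LNCaP DMSO alone regions, which made up 41.8%.

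**Figure D4:**
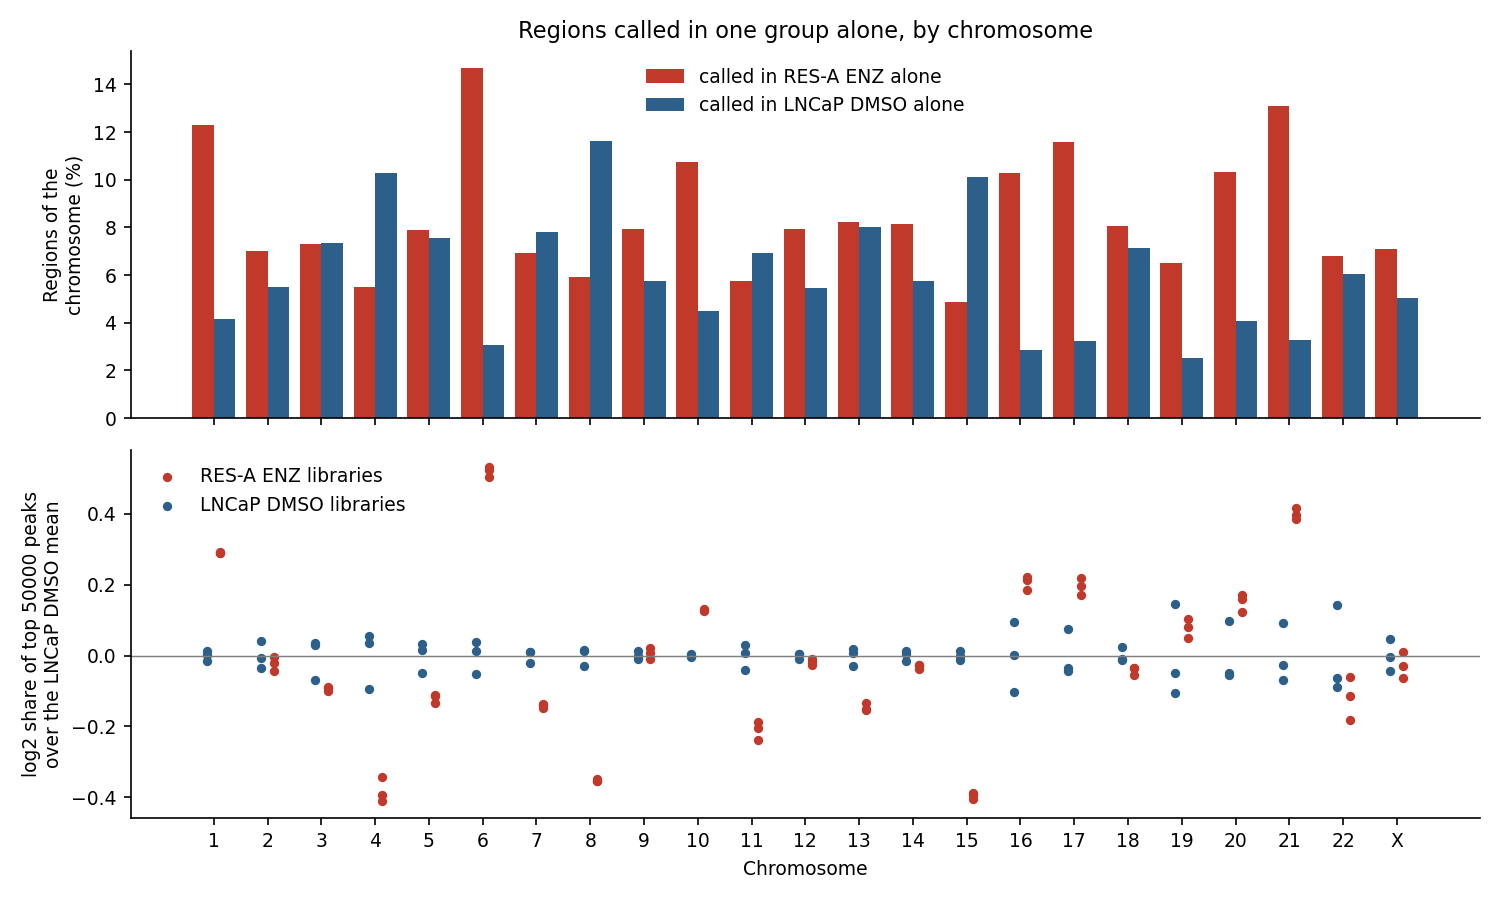
Upper panel, percentage of the merged regions of each chromosome (horizontal axis) called in RES-A ENZ alone (red bars) and in LNCaP DMSO alone (blue bars). Lower panel, log2 of the share of a library's top 50000 peaks on the chromosome over the LNCaP DMSO mean, 1 point per library, 3 libraries per group. Chromosomes 6, 21 and 1 stand highest in RES-A ENZ and chromosomes 15, 4 and 8 lowest.

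At a finer scale, RES-A ENZ alone regions were most numerous in 3 windows of 1 Mb, with 15 of 56 regions at chr1:225000001-226000000, 15 of 52 at chr1:230000001-231000000 and 15 of 56 at chr21:43000001-44000000. LNCaP DMSO alone regions were most numerous at chr8:18000001-19000000 (16 of 39), chr1:187000001-188000000 (13 of 39) and chr8:6000001-7000000 (13 of 33). Of 2883 such windows that held a region, 2138 held at least 1 RES-A ENZ alone region, 1989 at least 1 LNCaP DMSO alone region and 1475 both.

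In windows of 10 Mb, the share of top-ranked peaks was higher in RES-A ENZ in 79 of 304 windows (26%) and lower in 91 (29.9%) by limma at an adjusted p under 0.05. The higher windows included 15 of the 18 of chromosome 6 and 18 of the 24 of chromosome 1. The lower ones included 13 of the 19 of chromosome 4, 8 of the 9 of chromosome 15, 9 of the 14 of chromosome 11 and 8 of the 15 of chromosome 8, where 3 were higher. The window chr6:80000001-90000000 held 0.212%, 0.21% and 0.214% of the RES-A ENZ peaks and 0.078%, 0.066% and 0.06% of the LNCaP DMSO peaks. That was a log2 difference of 1.65 ± 0.089 (SE; limma adjusted p = 5.59e-06). The windows chr6:50000001-60000000, chr6:40000001-50000000 and chr6:70000001-80000000 followed with 1.33, 1.003 and 0.93.

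The lowest window, chr13:60000001-70000000, held 0.042%, 0.034% and 0.04% of the RES-A ENZ peaks and 0.178%, 0.2% and 0.164% of the LNCaP DMSO peaks, a log2 difference of -2.23 ± 0.098 (SE; limma adjusted p = 2.24e-06). On the short arm of chromosome 8, chr8:30000001-40000000 and chr8:20000001-30000000 differed by -1.46 and -1.32, with 49 of 214 and 80 of 345 regions called in LNCaP DMSO alone and 0 and 3 in RES-A ENZ alone. The window chr3:80000001-90000000 differed by -1.31. The 8 named windows were chosen by the size of their difference in these same libraries. Their lack of overlap between the groups follows from that choice.

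The local background around peaks moved with these shares. For each window the median background at its peaks was divided by the genome-wide background of the library, and limma called 31 windows (10.2%) higher in RES-A ENZ and 36 (11.8%) lower. Of the 79 windows with a higher peak share, 29 had a higher background, 0 a lower one and 50 no call. Of the 91 with a lower peak share, 35 had a lower background, 0 a higher one and 56 no call. At chr6:80000001-90000000 the relative background was 1.19, 1.14 and 1.21 in RES-A ENZ and 1 in each LNCaP DMSO library. At chr13:60000001-70000000 it was 1 in each RES-A ENZ library and 1.33, 1.28 and 1.34 in LNCaP DMSO.

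Across the 304 windows Pearson's r between the log2 differences of share and of background was 0.84, a description over windows of the same 6 libraries, which are not independent points. The background cannot lie below the genome-wide value, and it sat there in all 6 libraries in 22 windows, in all 3 RES-A ENZ libraries in 36 and in all 3 LNCaP DMSO libraries in 31, so differences at those windows are bounds. The calls of background were few and moved with single libraries, falling to 13 higher without LNCaP DMSO replicate 1, 14 and 18 without RES-A ENZ replicates 1 and 3 and 19 without LNCaP DMSO replicate 3. The lower calls fell to 17, 15 and 17 without RES-A ENZ replicate 1, LNCaP DMSO replicate 1 and LNCaP DMSO replicate 3. The part of the local background in the peak differences was not tested.

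Regions called in one group alone were also found in windows whose share of peaks was not called. In windows with a higher share 13.2% of regions were RES-A ENZ alone and 3.16% LNCaP DMSO alone, and in windows with a lower share 4.53% and 11.04%. In windows with no call of share the percentages were 7.94% and 5.23%. The calls of the signal test were divided less sharply: 13.96% higher and 7.05% lower in windows of higher share, 7.74% and 12.3% in those of lower share, and 9.90% and 8.59% in the rest.

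**Figure D5:**
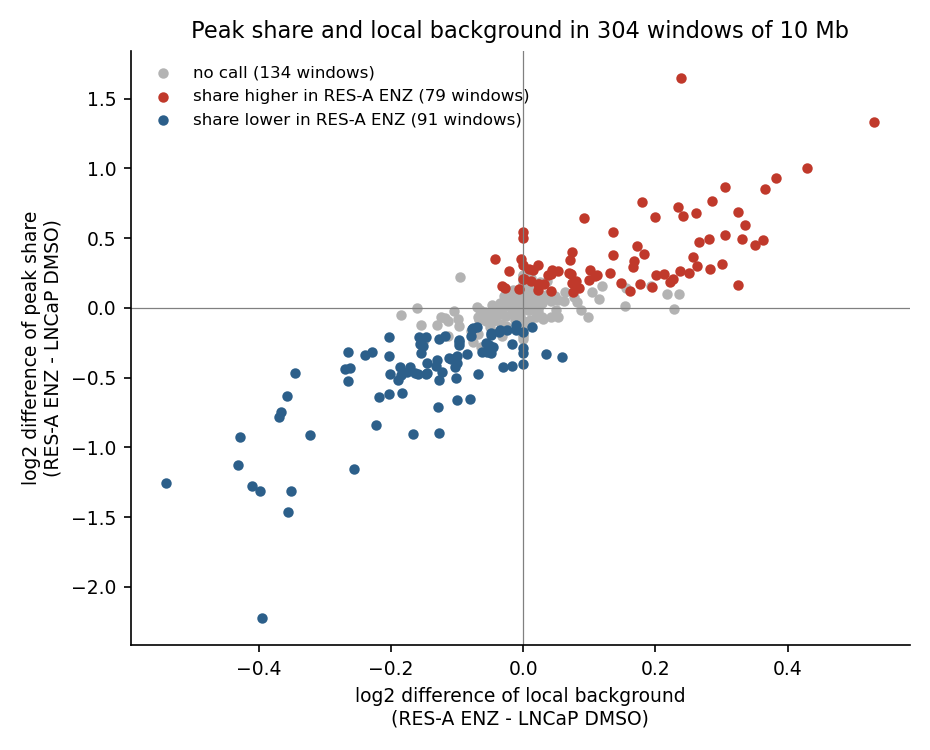
Log2 difference of the share of top-ranked peaks (vertical axis) against the log2 difference of the relative local background (horizontal axis), RES-A ENZ minus LNCaP DMSO, for 304 windows of 10 Mb (points). Red and blue mark the 79 windows of higher and 91 of lower share by limma. Both differences have the same sign in most called windows, and the windows in a vertical line at 0 include those where the background is at its lowest possible value.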

How the data were processed

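FAIRE-seq libraries of 50-bp single-end reads were aligned by the authors to hg19 with BWA 0.7.8-r455, duplicates were marked with Picard 1.118 and peaks called per library with MACS2 2.1.0. Peak caller options and any control library were not given in the sources used here. The deposited lists give each peak's position and length, its pileup (a signal, in reads, not scaled between libraries), a fold enrichment over the expected pileup and the −log10 of p- and q-values, as the authors' software wrote them. Every list ended at a q-value of 0.05. Read totals were not used here, so counts of reads and intervals that need them are not given.

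Groups and replicate numbers were read from the sample titles. The genome-wide background was the smallest (pileup + 1) / fold − 1 of a library, which assumes that the caller added 1 to both. Peaks were merged at 1 bp overlap, using the 50000 peaks of highest −log10 p per library. A region's signal in a library was the highest fold enrichment of its peaks. Windows of 10 Mb with a mean of at least 20 top-ranked peaks per library were tested.

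Across regions and windows, limma 3.58.1 (R 4.3.3, eBayes, with trend and robust for regions) was used with Benjamini-Hochberg adjustment at 0.05. Single values were tested by exact two-sided permutation over libraries (Python 3.11.15, numpy 2.4.6). The fits were tested on simulated data. Named are 6 regions per list by mean percentile of −log10 p, 5 per direction by the smallest p of the signal test, 4 windows of 10 Mb, 3 of 1 Mb and up to 4 chromosomes per direction by size; chromosome Y was left out. The regions, lists and tests were chosen with earlier results of these data known. Alternatives were 25000 or all peaks, q of 0.01, 50% cover, regions merged over 24 libraries, consensus in all 3 libraries, other normalizations, pileup, missing values set to the lowest, windows of 5 Mb, replicate numbers as a block and each library left out in turn.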

Additional observations from a re-analysis of the deposited data

How the results depend on the processing

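All signal and window differences of the named items kept their direction and call under every alternative run. Differences in peaks per library ranged from -20741.8 to 45676.2 when 1 library was left out (-3978 without RES-A ENZ replicate 2), in unique share from -10.8 to 34.2 points and in background from -0.702 to 0.840. For the unique share, leaving out a library also made the consensus rule stricter in its group alone. RES-A ENZ alone and LNCaP DMSO alone numbered 3670 and 2363 regions with 25000 peaks and 18434 and 8644 with all peaks, and 7773 to 8443 and 5671 to 8153 with 1 library left out. In RES-A ENZ alone regions, LNCaP DHT+ENZ minus LNCaP ENZ turned to 1.15 points with all peaks and 0.445 at 50% cover. In LNCaP DMSO alone regions, LNCaP DHT minus LNCaP ENZ ranged from -7.18 to 11.8 points with 1 library left out. Signal calls were 12538 higher and 11172 lower on pileup and 13740 and 13201 with missing values at the lowest value, and ranged from 4019 to 9612 and 3533 to 8728 with 1 library left out. With 5-Mb windows, share calls were 144 and 161 and background calls 71 and 83. Background calls ranged from 13 to 35 and 15 to 42 with 1 library left out. Median centring in the fit of 4 groups gave 4814, 4944 and 5489 calls for RES-A ENZ against LNCaP DMSO, RES-A DMSO against LNCaP DMSO and RES-A ENZ against LNCaP ENZ. Without LNCaP ENZ replicate 1 these were 14599, 14527 and 12241, with 4 for LNCaP ENZ against LNCaP DMSO, of 67884 instead of 40193 regions tested. Requiring a peak in all 3 libraries moved the unique share to 18.6 points. The cause of these changes was not tested.

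In the quantile normalized region signal, same-numbered libraries did not deviate together (correlations of 0.0396, -0.0190 and -0.0459). That check does not cover depth, and the second library had the highest background in both groups. With the replicate number as a block, background calls rose to 64 and 65, signal calls were 7090 and 5953, share calls 67 and 84, and calls in the fit of 4 groups 2824, 2945 and 3282. Exact sign-flip permutations over the 3 pairs, whose smallest p is 0.25, gave p = 0.75 for peaks per library, and exact permutations within the block gave p = 1 for the unique share, p = 1 for the background and p = 0.25 for R2. All 12 regions named as called in one group alone lost or changed that pattern with all peaks, an alternative chosen after seeing the data. A region without a listed peak in a library has no value there, and the part of depth in this was not tested.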
